A study of Mus musculus with 19 samples.

Results

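An open reading frame (ORF) is a run of codons from a start to a stop codon, and the ORFs described here are those that lie on transcripts carrying a retained intron. They were chosen from 5 deposited lists of translated ORFs. The authors give each row a type, and 1 of these types sets ORFs apart from the annotated coding ORFs (called unannotated here). An ORF was taken if every row of it has that type and if at least 1 of its rows names a transcript of the biotype retained intron. The rule found 3900 of the 21663 unique ORFs in the lists (18%), which is 75.3% of the 5179 unannotated ORFs. They lie in 2389 genes and on 3635 retained-intron transcripts. A further 551 ORFs had a row on such a transcript but carried another type in some row, and they were not taken.

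The libraries came from mouse organoids of strain C57BL/6, grown either from alveolar type 2 (AT2) cells, the makers of lung surfactant, or from lung adenocarcinoma (LUAD). The ORF lists come from 2 AT2 and 3 LUAD libraries, the latter titled KP in the labels and assigned by their source label. Estimated counts per transcript come from 3 AT2 and 4 LUAD footprint libraries and from 3 AT2 and 4 LUAD RNA libraries. Cycloheximide, which stalls ribosomes on the message, was added at 100 µM for 5 min to organoids 48 hours after plating. Footprints are the RNA pieces that ribosomes protect, collected here with RiboLace. The design text names the AT2 cultures and tumour-derived organoids of the ORF lists as independent. Nothing used here says so for the footprint and RNA libraries, so their p-values measure the spread between these libraries, which may be technical.

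Intron retention leaves an intron in a spliced message. A ribosome that reads a coding sequence into such an intron meets new codons and usually soon a stop codon, and a message with an early stop can be destroyed by nonsense-mediated decay, which uses exon junction complexes left by splicing. Many retained-intron RNAs also stay in the nucleus and are not translated. Genes for splicing factors are textbook cases of regulated retained and poison introns.

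Footprint libraries held 3.03 to 3.83 M estimated counts in AT2 and 4.80 to 14.25 M in LUAD, and RNA libraries 4.12 to 10.23 M in AT2 and 27.18 to 33.20 M in LUAD. AT2 footprint replicate 1 stood apart: its 10 most abundant transcripts took 54.0% of its counts, against 4.70 to 9.62% in the other footprint libraries. Of 10 markers of AT2 cells 5 are genes of the ORF lists, and their summed footprints were 1196 to 1401 CPM (counts scaled to library size) in AT2 and 166 to 197 in LUAD. The 6 tumour organoid markers summed to 131 to 410 CPM in AT2 footprints and to 2760 to 3264 in LUAD. Of 6 macrophage markers 2 (Mrc1 and Cd14) are in the lists, at 8.68 to 8.89 CPM in AT2 footprints and 77.6 to 101 in LUAD footprints. Those 2 genes thus moved with the tissue, and their part in the results was not tested. No marker of fibroblasts, endothelium, club, ciliated or basal cells is among the genes of the lists. Marker sums, like all gene levels here, cover only the transcripts that the ORF lists name, so main transcripts of a gene can be missing. The AT2 marker Slc34a2, for example, was at 0 CPM in RNA of both tissues. In bulk libraries, fewer cells of a type and less RNA per cell cannot be told apart.

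The members were short beside the coding ORFs of the same lists. Their median length was 166 codons, with a range from 20 to 1664 and the middle of the distribution between 99 and 310. The 13381 annotated coding ORFs had a median of 471 codons and the 1279 other unannotated ORFs one of 148. Of the members 987 (25.3%) had at most 100 codons, against 5.53% of annotated and 30.6% of other unannotated ORFs. Every one of the 3900 listed peptides begins with methionine. The longest were in Wdr90 (1664 codons), in Tnrc6c (1568), a partner of the microRNA machinery, and in Lyst (1544), which shapes lysosomes. The shortest was in Pdap1 (20 codons). A length of 21 codons was shared by 4 members, among them those of the proteasome subunit gene Psmd1 and of Grn, which encodes the granulin precursor. These 3 longest were thinly covered, with 11 in-frame P-sites in the Wdr90 ORF, 17 in that of Tnrc6c and 7 in that of Lyst, each in 1 list. A P-site is the codon position in the ribosome that holds the growing chain, and it is in frame when it falls on the reading frame of the ORF.

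**Figure D1:**
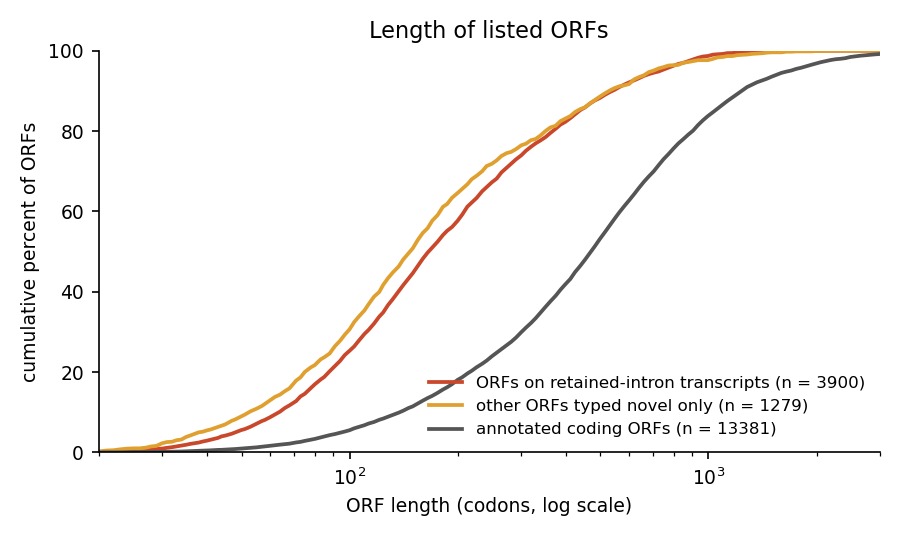
Cumulative percent of ORFs (vertical axis) by length in codons (horizontal axis, log scale) for 3900 members, 1279 other unannotated ORFs and 13381 annotated coding ORFs. The member curve lies close to that of the other unannotated ORFs and far to the left of the annotated one, with medians of 166, 148 and 471 codons.

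Most genes held a single member. Of the 2389 genes 1469 had 1 member, 773 had 2 or 3 and 147 had 4 or more. Akap8, a nuclear scaffold for protein kinase A, had the most with 9. Capn2 (a calpain protease) and Mybbp1a (a nucleolar protein) had 8 each, and Nat10 (an RNA acetyltransferase) and Slc4a11 (a membrane transporter) 7 each. Members of 1 gene often overlap and then share footprints, so they are not independent. The plus strand held 1970 members.

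Members took a similar part of each list. They made up 15.9% of 2597 listed ORFs in AT2 replicate 1 (95% exact binomial interval 14.6 to 17.4) and 14.3% of 4426 in AT2 replicate 2 (13.3 to 15.4). In LUAD they were 17.7% of 13380 (17.1 to 18.4), 17.2% of 8122 (16.3 to 18) and 17.1% of 5372 (16.1 to 18.1). The intervals cover counting error only, since P-sites from amplified reads are not independent molecules. The share was lower in both AT2 lists (mean 15.1%, SD 1.13, n = 2) than in each of the 3 LUAD lists (mean 17.3%, SD 0.353, n = 3), with no test, as 2 lists against 3 cannot reach an exact p of 0.05. The AT2 lists are also the shorter ones. Among ORFs with a deposited p-value under 0.01 the order was not kept, at 17.8% in AT2 replicate 1 and 16.3 and 15.3% in LUAD replicates 1 and 2.

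Few members recurred. Of the 3900, 2520 were listed in 1 library, 1000 in 2, 312 in 3, 64 in 4 and 4 in all 5. The share listed in at least 2 libraries was 35.4%, against 47.7% of annotated and 29.8% of other unannotated ORFs. LUAD lists alone held 2910 members (74.6%), AT2 lists alone 395 and both kinds 595. Of annotated ORFs 67.8% were in LUAD lists alone, with 1199 in AT2 alone and 3104 in both, so most ORFs of either kind were seen in the longer LUAD lists alone.

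In-frame shares of the members were close to those of other ORFs. In-frame P-sites were 52.7, 51.7, 52.4, 50.8 and 48.0% of all P-sites on members in the 5 lists (AT2 1 and 2, then LUAD 1 to 3). On annotated ORFs they were 46.5, 47.5, 47.8, 46.8 and 44.1%, lower than on members in each list, and on other unannotated ORFs 55.9, 51.9, 53.5, 52.0 and 47.7%. Every listed ORF had passed the authors' own p-value, so these percentages describe what was listed and are no test. Support per member was low, with a median of 33 in-frame P-sites summed over libraries (5 to 9505). The median per listed member was 10 and 11 in the AT2 lists and 55, 15 and 16 in the LUAD lists.

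The peptides of the members were mostly read from known coding sequence. For 3678 members the lists also hold an annotated coding ORF of the same gene, and 3533 of them (96.1%) share a run of at least 10 residues with it. In those, 830404 of 893618 residues (92.9%) were shared. The most frequent form, with 2157 members, starts within annotated sequence and ends in a tail of its own. That tail had a median of 15 residues (quartiles 6 and 31, longest 451) and at most 20 residues in 1317 of them, and 1512 of these members begin at the annotated start codon. A further 952 lie wholly within the annotated peptide, 598 of them ending at its stop. A head of their own before shared sequence was found in 235 (median 20 residues), both a head and a tail in 143, and another mixture in 46. Of the other unannotated ORFs 95.3% also shared a run (1020 of 1070), so sharing is not particular to retained-intron transcripts.

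**Figure D2:**
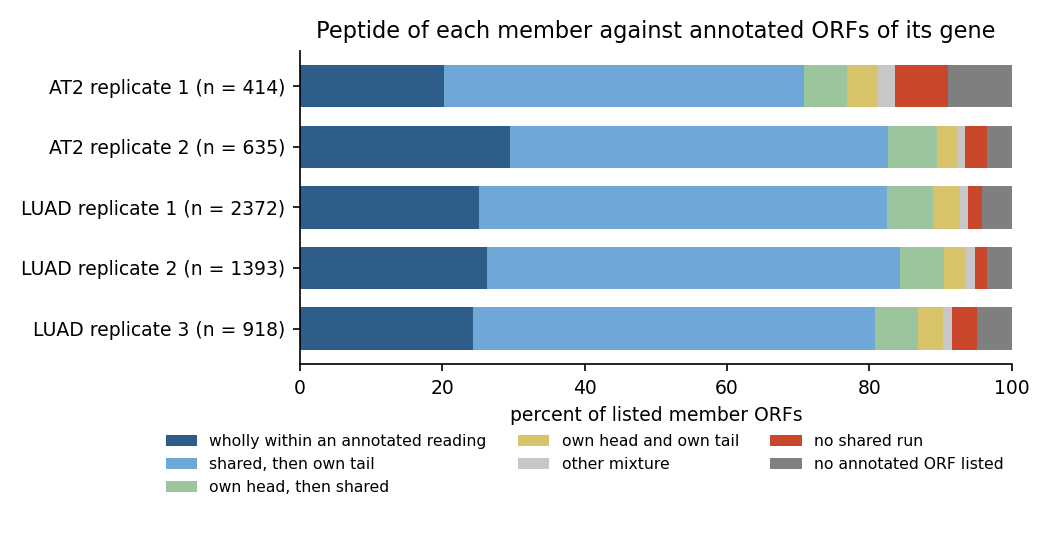
Percent of listed members (horizontal axis) by how their peptide relates to the annotated ORFs of the same gene, for each of the 5 ORF lists. Shared sequence followed by an own tail is the widest band in every list, for example 1360 of 2372 members in LUAD replicate 1.

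The 12 members with most in-frame P-sites lay in 8 genes, with 3 in Actb and 2 in Krt7. Coordinates are on mm10 as the deposited lists give them. The highest was a 191-codon ORF of Actb, the gene of beta-actin, at chr5:142905024-142905686 on the minus strand, where 121 residues are shared and 70 are its own tail. It was not listed in AT2 replicate 1 and had 517 in-frame P-sites in AT2 replicate 2 and 5117, 1959 and 1912 in the LUAD lists, 9505 in all. A 148-codon ORF with the same stop at chr5:142905024-142905470 had 274, 2831, 810 and 1187 in those lists and shares most of its footprints with the first. Actin genes have many near-identical copies, so the placing of these reads is uncertain.

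Krt7, a keratin of simple epithelia, followed. Its 215-codon member at chr15:101419554-101427665 on the plus strand lies wholly within the annotated peptide and had 468 in-frame P-sites in AT2 replicate 2 and 3157, 665 and 711 in LUAD. A second Krt7 member of 173 codons, at chr15:101412474-101414184, had 309, 1988, 536 and 570. Both were absent from the list of AT2 replicate 1 and present in the other 4 lists. Other members listed in at least 4 libraries were in Myh9 (non-muscle myosin; 395 codons, chr15:77789788-77813212), in Anxa2 (a membrane-binding annexin; 222 codons, wholly shared, chr9:69479786-69491505) and in Cyfip1 (a subunit of the WAVE complex; 1096 codons, chr7:55871860-55925287). Pfn1, the gene of the actin-binding protein profilin, held a 27-codon member listed in 4 libraries at chr11:70652773-70652856. It had 96 and 79 in-frame P-sites in AT2 and 630 and 129 in LUAD replicates 1 and 2, so it was among the few with support in both AT2 lists.

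Ncl held another of these 12, while Rpl8 and Rps3 are named for the number of lists that hold their members. Ncl encodes nucleolin, a nucleolar protein of ribosome production, and its 516-codon member at chr1:86353025-86359223 has a tail of 32 residues. In-frame P-sites were 250 in AT2 replicate 2 and 3200, 292 and 491 in LUAD. Rpl8, a protein of the large ribosomal subunit, had a 175-codon member with a tail of 8 (chr15:76904313-76905065; 208 in AT2 replicate 2; 1163, 300 and 346 in LUAD). Rps3, of the small subunit, had a wholly shared 117-codon member in all 3 LUAD lists and no AT2 list. Ribosomal protein genes have processed copies, and their reads may be split among them.

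The other members with most in-frame P-sites were in Hsp90b1, Ctnnb1, Ccnd1, Slc38a2 and Ly6e. Hsp90b1, the chaperone of the endoplasmic reticulum, had a 612-codon member at chr10:86692032-86701908 with a tail of 34 and 169, 2041, 240 and 304 in-frame P-sites in AT2 replicate 2 and LUAD 1 to 3. Ctnnb1 encodes beta-catenin, which joins adhesion to Wnt signalling, and its 566-codon member at chr9:120950221-120955990 ends in 2 residues of its own. It was listed in LUAD alone, at 1731, 636 and 663. Ccnd1, the gene of cyclin D1, had a 310-codon member at chr7:144933806-144939693 with a tail of 69 and 192, 1667, 382 and 403 in-frame P-sites. The amino acid transporter gene Slc38a2 differed in form, since its 356-codon member (chr15:96690127-96693757; 95, 2221, 274 and 328) has a head of its own of 40 residues and then shared sequence to the end. Ly6e, a small membrane-anchored protein, had members of 65 and 27 codons that share most of their length, and most of their P-sites came from LUAD replicate 1 (3438 of 3667 and all 2934). Tkt (transketolase of the pentose phosphate pathway; 358 codons, wholly shared) and Emp1 (a membrane protein of epithelia; 136 codons) were listed in 4 libraries with lower numbers. The 12 members with most in-frame P-sites held 48919 of 356686 (13.7%).

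Where 2 listed ORFs share a start codon and differ in where they stop, the P-sites in the added codons can be estimated by subtraction. The shorter ORF may end in up to 5 residues that the longer one lacks, so the difference does not isolate the added codons exactly. Over all frames the longer ORF had fewer P-sites than the shorter in some cases. In LUAD replicate 1 these were 130 against 134 in Arpp19 and 48 against 73 in Mrpl42. This comparison was chosen after the values were seen. It could be made for 42 pairs in 41 genes in which the longer ORF is a member that ends in its own tail. Counting each pair once in each library that lists both ORFs gave 62 cases. The shorter ORFs held 11995 in-frame P-sites in 10821 codons, and the added 1385 codons held 77. In 50 of 62 cases the difference was 0, and in 2 more, in Aprt and Vps35, it was below 0. Differences below 0 were counted as 0 here and for annotated pairs, and the net sum with these 2 is 73.

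Few codons were added in many of these pairs, so cases were kept in which the shorter ORF's density would give at least 5 P-sites in the added codons. In these 28 cases from 17 pairs, 75 in-frame P-sites were found where 5733 would be at equal density (1.31%), and 19 of 28 (67.9%) had none. The sums rest on Actb. Without it 65 were found against 720 (9.03%), and 17 of 24 cases (70.8%) had none. Of these 720, 348 come from the Arpp19 case, which had 0 found. They are extrapolated from a shorter ORF of 20 codons with 120 in-frame P-sites, so this percentage rests largely on Arpp19. The same subtraction in 664 cases of annotated ORF pairs gave 81.3% of equal density, and 13.1% (87) had none. The annotated pairs add more codons (median 65 against 14 over all pairs), and with at least 10 added codons 31 of 39 member cases (79.5%) and 221 of 919 annotated cases (24%) had none. Densities within an ORF vary along its length, so the subtraction describes these pairs and no more.

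The pairs show this gene by gene. In Actb the 66 codons that the 191-codon ORF adds to a 125-codon ORF held 1 of 517 in-frame P-sites in AT2 replicate 2, and 9 of 5117, 0 of 1959 and 0 of 1912 in LUAD. Snrpb, which encodes a core protein of the spliceosome's small nuclear ribonucleoproteins, adds 32 codons, and these held 0 of 87, 0 of 35 and 0 of 35 in LUAD. Arpp19, a phosphatase regulator, adds 58 codons with 0 of 120. Sf3b1, a core protein of the U2 snRNP that marks branch points, adds 41 codons with 0 of 19 and 0 of 33. By this subtraction, all but 10 in-frame P-sites of the member in these 4 genes, those 10 in Actb, are assigned before the added codons.

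A few pairs had more P-sites in the added codons, though mostly below equal density. Arrdc1, an arrestin-like adaptor, adds 63 codons that held 24 of 150 in-frame P-sites in LUAD replicate 1. Equal density would give 40.3. Rps9, of the small ribosomal subunit, adds 15 codons that held 4 of 61 in AT2 replicate 2, and 6 of 183, 1 of 97 and 12 of 97 in LUAD. For Rps9 equal density would give 10.8, 33.6, 18.2 and 16.1. Eny2, of a histone-modifying complex, adds 3 codons, with 0 of 12 in AT2 replicate 2 and 17 of 121 in LUAD replicate 1. The latter lies above the 5.57 of equal density. Rps9 has processed copies, whose part in these values was not tested.

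**Figure D3:**
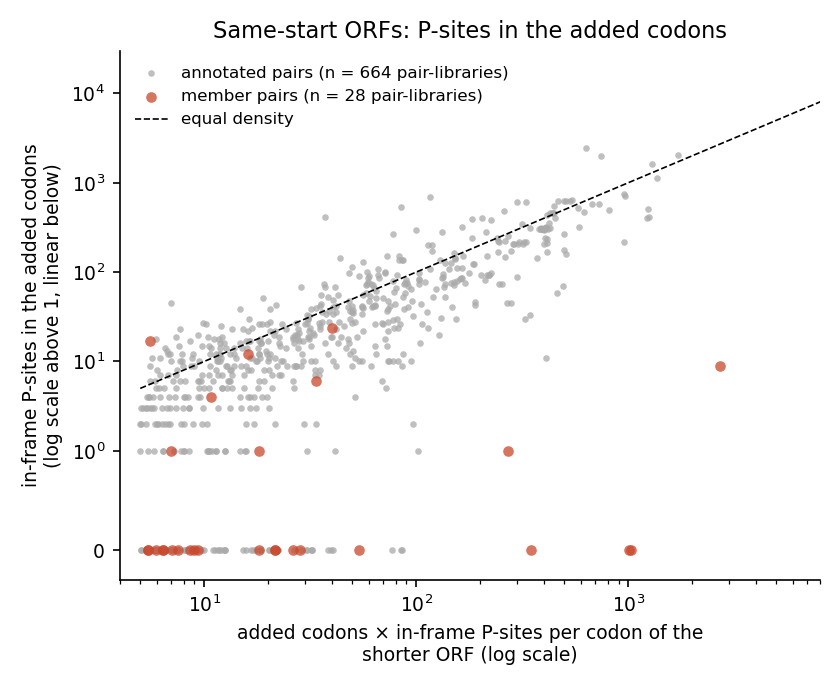
In-frame P-sites in the added codons of the longer ORF (vertical axis, log scale above 1, negative differences drawn at 0) against the number that the shorter ORF's density would give (horizontal axis, log scale), for 28 cases of member pairs and 664 of annotated pairs. Annotated pairs scatter around and below the line of equal density, while 19 of 28 member cases lie at 0 on the vertical axis.

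The density of members as a whole was near that of the annotated ORF of the same gene in the same list. An annotated ORF was listed in the same library for 47.1, 74.0, 91.1, 84.1 and 74.5% of members (AT2 1 and 2, LUAD 1 to 3). The median ratio of in-frame P-sites per codon, member over annotated, was 1.12, 1.09, 1.04, 1.07 and 1.10. Among members that begin at the annotated start, the ratio was lower where the own tail is over 30% of the peptide, at 0.851, 1.15, 0.715, 0.809 and 0.845, against 1.19, 1.14, 1.06, 1.23 and 1.27 with no tail. AT2 replicate 2, with 22 long-tailed members, is the exception. The order by tail is a description, since both ORFs count the same footprints where they overlap.

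A small set shared nothing with the listed coding ORFs. These 145 members in 131 genes had no run of 10 residues in common with an annotated ORF of their gene, and 119 of them had at most 100 codons (median 67). Of these 7 were listed in 2 libraries and 0 in more, with 95 in LUAD alone, 45 in AT2 alone and 5 in both, and their median was 15 in-frame P-sites. Clu, the gene of the secreted chaperone clusterin, held the one with most, a 28-codon ORF at chr14:65971805-65971891 with 224 in-frame P-sites in AT2 replicate 1. A 20-codon ORF of Pdap1 at chr5:145135103-145135165 had 8 in AT2 replicate 2 and 175 in LUAD replicate 1. Others were in Cers2, a ceramide synthase (76 codons, chr3:95321856-95322339), in Eif4g2, a translation initiation factor (62 codons, chr7:111078021-111078305), in Slc38a2 (26 codons, chr15:96698178-96698258) and in Metap2, Hnrnpu, Caprin1 and Ccnl1. The Clu ORF was listed in 1 AT2 library and in no other list.

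Membership of the lists split by tissue for few members. Of the 395 members listed in AT2 alone, 17 were in both AT2 lists (0.436% of all members, against 0.523% of annotated ORFs). The highest was a 204-codon ORF of Ctsh, a lysosomal cathepsin of AT2 cells, with 114 and 52 in-frame P-sites (chr9:90061564-90067261). Capn2 (37 and 22), Gadd45b, a stress-induced gene (25 and 25), Nt5e, the ecto-5′-nucleotidase (23 and 15), and Bax, a mediator of apoptosis (14 and 16), followed. The members in all 3 LUAD lists and no AT2 list numbered 105 (2.69%, against 3.94% of annotated ORFs), led by Ctnnb1, Ywhae (a 14-3-3 protein), Ankrd1 (a YAP target gene), Rps3 and Hsp90ab1 (the cytosolic chaperone). Absence from a list can mean too few footprints, and the AT2 lists are shorter, so absence from AT2 was not read as a difference.

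Genes of the splicing and decay machinery held members of their own. These lists were drawn up with earlier results of these data known. Of 21 genes of nonsense-mediated decay and the exon junction complex 3 had a member, namely Smg5 (702 codons, tail of 83; 34, 164 and 20 in-frame P-sites in AT2 1 and LUAD 1 and 2), Gspt1, a release factor, and the kinase gene Smg1. Of 36 genes known for retained, detained or poison introns 17 had members, 40 in all. Hnrnpl, which binds CA-rich RNA, led with a 329-codon ORF (635 and 161 in LUAD replicates 1 and 2), then Ptbp1, the polypyrimidine tract-binding protein, with a wholly shared 264-codon ORF (56 in AT2 replicate 1; 300, 110 and 99 in LUAD). Srsf11, Rbm5, Snrnp70, Srsf6 and Srsf1 were among the others. Of 18 intron definition factors 11 had members, 25 in all, with Sf3b3 (596 codons; 443, 87 and 78 in LUAD) and Sf3b1 (256 codons; 234 and 29 in LUAD replicates 1 and 3) the highest. Over all genes of the ORF lists, 2389 of 7266 have a member. Of the 21, 36 and 18 genes above, only 14, 31 and 16 are among the genes of the ORF lists. Beside that background the like counts are thus 3 of 14, 17 of 31 and 11 of 16, with no test made.

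The estimated counts of the transcripts give a separate view, made from all footprints or all RNA reads by transcript. Members mostly share sequence with annotated ORFs of their gene, and how such reads were divided among its transcripts was not tested. Of the 3635 transcripts 3602 were in the count tables. Of these 2414 (67.0%) had counts in both assays and 180 in none, 740 (20.5%) had footprint counts but 0 in every RNA library, and 268 the reverse. They took 2.13, 3.5 and 3.54% of all counts in the AT2 footprint libraries and 3.31, 3.33, 3.47 and 3.55% in LUAD. In RNA they took 1.15, 1.17 and 1.10% in AT2 and 1.11, 1.10, 1.07 and 1.17% in LUAD. Every footprint library thus lay above every RNA library. The transcripts entered through ORFs called from footprints, so the rule favours transcripts with footprints, and this difference between the assays is a description with no test.

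By tissue the shares overlapped. In footprints the mean was 3.06% ± 0.803 (SD, n = 3) in AT2 and 3.41% ± 0.118 (SD, n = 4) in LUAD (exact two-sided permutation test, p = 0.743), and 3.52% in AT2 without replicate 1. In RNA it was 1.14% ± 0.0392 in AT2 and 1.11% ± 0.0448 in LUAD (exact permutation p = 0.4). The smallest p that 3 against 4 allows is 0.0571.

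Within their own genes, member transcripts held 13.7, 10.6 and 10.9% of the counts in AT2 footprints and 9.82, 9.93, 10.5 and 10.8% in LUAD. In RNA they held 3.63, 3.71 and 3.73% in AT2 and 3.34, 3.31, 3.46 and 3.69% in LUAD. AT2 lay above LUAD on average in both assays, but the ranges overlapped (exact permutation p = 0.114 each). Gene totals here sum the transcripts that the ORF lists name.

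**Figure D4:**
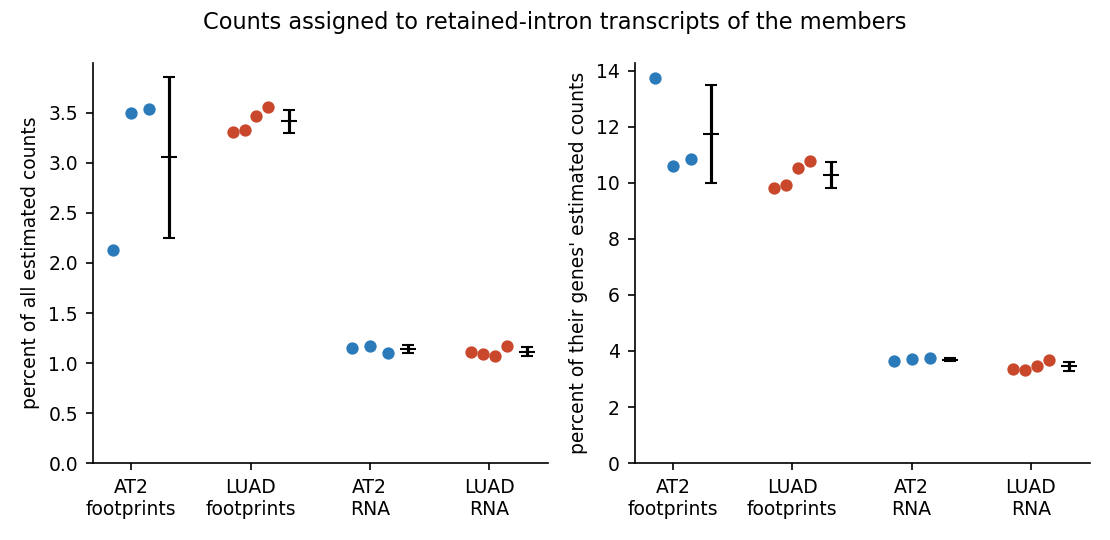
Percent of all estimated counts (left) and of the counts of their own genes (right) assigned to the retained-intron transcripts of members, 1 point per library, with the mean and SD to the right of each group. Footprint libraries lie above RNA libraries in both panels, and AT2 footprint replicate 1 lies apart at 2.13% and 13.7%.

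A member with many P-sites can lie on a transcript with few or many estimated counts. The transcript of the 191-codon Actb member, first by P-sites, had 5.88, 0 and 0 CPM in AT2 footprints and 0 in all 4 LUAD libraries. The Ccnd1 transcript held 61.8% of the gene's footprint counts in AT2 and 59.1% in LUAD, but 0.703 and 0.517% of its RNA counts. For Krt7 the shares were 65.4 and 59.7% of footprints and 37.7 and 33.4% of RNA. Ncl had the same order, with 89.9 and 95.5% against 81.9 and 79.6%. Of these 4 genes Actb alone had a transcript near 0 in footprints, but others of the 12 members lie on such transcripts too. The Hsp90b1 transcript reached at most 0.205 CPM in footprints and the other Actb transcript 3.09. The Ly6e transcripts, at 0 in AT2, reached at most 3.62 and 1.27 CPM in LUAD. The Ccnd1 transcript had few RNA counts, while those of Krt7 and Ncl are prominent in both assays.

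The Ctnnb1 transcript held 23.2% of the gene's footprint counts in AT2 and 3.78% in LUAD, and 0 and 0.00335% of its RNA counts. Its footprints were 57.1, 410 and 442 CPM in AT2 and 7.81, 11.9, 88.4 and 89.0 in LUAD, groups that overlap (edgeR, adjusted p = 0.2). The ORF lists show the Ctnnb1 member in LUAD alone. In all, 103 member transcripts held over 50% of their gene's footprint counts in LUAD and under 5% of its RNA counts. Over 50% of the gene was reached by 237 (AT2) and 249 (LUAD) in footprints and by 77 and 92 in RNA. The like counts for other listed transcripts were not made, so these numbers do not set the members apart.

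Between tissues, few member transcripts changed in footprints. Of 25939 transcripts tested, 7.3% passed at an adjusted p under 0.05 (edgeR's quasi-likelihood test, adjusted by Benjamini-Hochberg), 3.85% higher and 3.45% lower in LUAD. Of 1085 member transcripts with enough counts to test, 56 passed (5.16%), 33 higher and 23 lower in LUAD, which is below that background. Their median log2 change was -0.20, against 0.16 for all transcripts, and -0.19 with the 30 that are at 0 in a group set at their bound. The gene as a whole changed the same way for 33 of the 56 and the opposite way for 2 (Grb7 and Sgk1), and for 21 it did not pass. Here and for RNA the gene as a whole stands for the sum of its transcripts named in the ORF lists. The lists name 22509 of the 118489 transcripts in the count tables. The sum includes the member transcript, so agreement between them is partly built in.

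In RNA 10.1% of 29481 transcripts passed (6.66% higher, 3.4% lower), and 46 of 981 member transcripts (4.69%), 36 higher and 10 lower. This share too lies below the background. The median change was 0.44 against 0.20 (also 0.44 with 113 set at their bound), and 34 of the 46 went with their gene, with 12 whose gene did not pass. Of the 479 transcripts tested in both assays 7 passed in both, against 575 of 17342 (3.32%) over all transcripts tested in both. The 7 had the same sign in both assays, as did 570 of the 575. They were Anxa10, Bst1, Cxcl5, Itm2b and Tbc1d15 (higher in LUAD) and Fads3 and Plbd2 (lower).

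**Figure D5:**
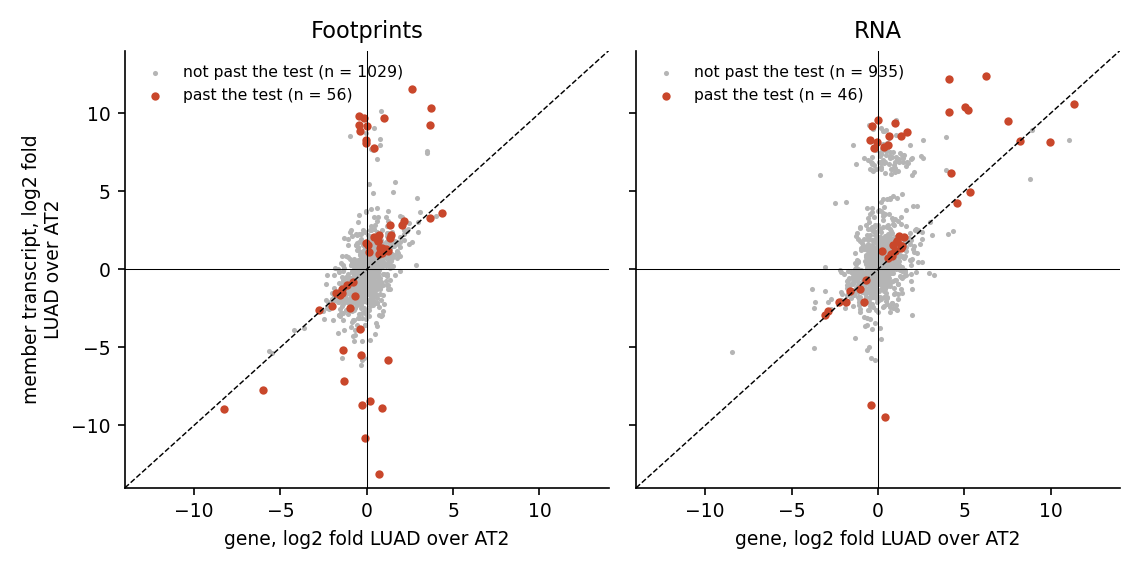
Log2 change LUAD over AT2 of each tested member transcript (vertical axis) against that of its gene (horizontal axis), for footprints and RNA, with transcripts past the test in red (56 and 46). The gene's sum covers only transcripts that the ORF lists name and includes the member transcript. Fitted changes beyond about 7 come from transcripts with few or 0 counts in 1 tissue and depend on the prior count, and the dashed line marks equal change.

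Fads3, a fatty acid desaturase family member, fell in both assays. Its transcript had 220, 189 and 214 CPM in AT2 footprints and 44.7, 35.8, 39.8 and 44.3 in LUAD (log2 change -2.34, SE 0.189, adjusted p = 0.00243). In RNA it had 399, 369 and 238 CPM against 125, 122, 132 and 133 (-1.39, SE 0.188, adjusted p = 0.00662). Tbc1d15, a regulator of Rab GTPases, rose in both. Footprints were 22.3, 20.6 and 13.3 CPM in AT2 and 59.6, 74.9, 81.4 and 83.9 in LUAD (log2 change 2.00, SE 0.286, adjusted p = 0.0118), and the RNA change was 1.82 (SE 0.273, adjusted p = 0.00885). Itm2b, a transmembrane precursor protein, rose by 1.82 (SE 0.328, adjusted p = 0.0237) in footprints and 0.98 (SE 0.234, adjusted p = 0.0415) in RNA. In each of these 3 genes the gene as a whole passed in the same direction, but its sum includes this transcript. In LUAD footprints the transcript held 33.0% of the gene's counts for Fads3, 63.5% for Tbc1d15 and 65.5% for Itm2b.

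Several transcripts had footprints in 1 tissue only. For these the fold is given as a bound, set against 3 counts over the group without counts. Bst1, a surface enzyme that hydrolyses NAD, had a transcript at 0 in AT2, while LUAD had 37.2, 54.7, 37.7 and 44.1 CPM in LUAD, at least 142-fold higher (edgeR adjusted p = 0.00302). Anxa10, an annexin of gastric epithelium, was at 0 in AT2 with 16.9, 17.5, 23.1 and 19.6 CPM in LUAD, at least 62.1-fold higher (adjusted p = 0.00734). Both calls held with each library left out in turn. Spats2 and Npepl1 were at least 40.6-fold and 37.9-fold higher, and Ints1, a subunit of the Integrator complex, at least 26.6-fold (adjusted p = 0.0131, 0.0223 and 0.0202). The Spats2 call was lost without LUAD replicate 3 or 4, and those of Npepl1 and Ints1 without any 1 LUAD library. The genes Spats2, Npepl1 and Ints1 did not pass in footprints as a whole (log2 change -0.18, -0.45 and -0.45), and the Spats2 and Ints1 transcripts were at 0 in every RNA library.

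The lower calls were less steady. The Aqp5 transcript, of a water channel of the alveolus, had 78.8, 18.2 and 15.8 CPM in AT2 and 0, 0, 0.217 and 0 in LUAD, a ratio of 462 (counting interval 156 to 2253; edgeR adjusted p = 0.0139). It did not pass without LUAD replicate 3. Krtcap2, a subunit of the oligosaccharyltransferase complex, had 10, 20.6 and 47.5 CPM in AT2 and 0 in LUAD, at least 502-fold lower (adjusted p = 0.0202), and the call was lost without AT2 replicate 2 or 3 or LUAD replicate 3. Eef1a1, the elongation factor that brings aminoacyl-tRNA, had 18.2, 338 and 32 CPM in AT2 and 0 in LUAD, at least 2443-fold lower (adjusted p = 0.0423), a value that rests mostly on AT2 replicate 2. It has many processed copies, and the gene as a whole did not pass (0.69, adjusted p = 0.133). The Grb7 transcript, of an adaptor of receptor kinases, was at 5.29, 5.43 and 10.4 CPM in AT2 and 0 in LUAD, at least 125-fold lower (adjusted p = 0.0279), while the gene rose (0.86, adjusted p = 0.0439). Nt5e fell by 7.75 on the log2 scale (SE 1.48, adjusted p = 0.0272), from 7.65, 64.1 and 53.1 CPM to 0.727, 0, 0 and 0.205. Eef1a1, Grb7 and Nt5e passed in at most 2 of the 7 fits with 1 library left out. The Grb7 and Nt5e transcripts were at 0 in every RNA library. In RNA the Krtcap2 transcript was at 0 in AT2 and at 1.25, 2.59, 0.416 and 2.52 CPM in LUAD, opposite to its footprints. That RNA change did not pass (edgeR adjusted p = 0.0602).

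In RNA the largest rises were in Cxcl5, Bst1, Pxdn, Plekhs1 and Axl, whose genes also rose as a whole. Cxcl5, a neutrophil-attracting chemokine, had a transcript at 0 in AT2 and at 34.2, 37.1, 35.4 and 25.2 CPM in LUAD, at least 281-fold higher (adjusted p = 0.00118). A second Bst1 transcript was at 0 in AT2 and at 32.7, 37.7, 19.2 and 23.8 CPM in LUAD, at least 245-fold higher (adjusted p = 0.00218). Pxdn, a peroxidase of the basement membrane, was at least 85.0-fold higher (adjusted p = 0.0117), with 0 footprint counts in all 7 libraries. Plekhs1 was at least 70.5-fold higher (adjusted p = 0.0115), and the receptor kinase gene Axl at least 62.8-fold (adjusted p = 0.035). The calls for Cxcl5, Bst1, Pxdn and Plekhs1 held with each library left out, and that for Axl held in 1 of 7.

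Lower in LUAD RNA were Kctd17, an adaptor of ubiquitin ligases (16.8, 18.6 and 23.0 CPM in AT2; 2.93, 2.19, 2.83 and 2.44 in LUAD; log2 change -2.90, SE 0.41, adjusted p = 0.00702), and Scx, a transcription factor of tendon (-2.70, SE 0.61, adjusted p = 0.0359). Plbd2, a lysosomal hydrolase family member, fell by 2.11 on the log2 scale (SE 0.47, adjusted p = 0.034). Polr3g, a subunit of RNA polymerase III, and Synj1, a lipid phosphatase of vesicle recycling, were at 0 in LUAD, at least 200-fold and 115-fold lower (adjusted p = 0.0321 and 0.0459). Kctd17 held with each library left out, Scx, Plbd2 and Polr3g in 1 of 7 and Synj1 in 0.

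Footprints per RNA differed for few transcripts. The interaction of tissue and assay passed for 0.547% of 41658 transcripts (0.358% higher, 0.19% lower) and for 9 of 1898 member transcripts, 2 higher and 7 lower in LUAD, a share of 0.474%, near the background and so not a result about the members. Ect2, a guanine nucleotide exchange factor of cell division, had footprints of 6.47, 72.5 and 27.2 CPM in AT2 and 165, 196, 220 and 245 in LUAD, with RNA at 3.74, 0 and 3.25 in AT2 and 0 in LUAD (adjusted p = 0.044). That call was lost in 11 of 14 fits with 1 library left out and without the filter on low counts. Synj1 had footprints of 28.2, 19.8 and 11.2 CPM in AT2 and 10.7, 23.0, 18.7 and 16.6 in LUAD, with RNA in AT2 alone (adjusted p = 0.0181, lost without AT2 footprint replicate 3). In both genes footprint counts were assigned to the transcript in LUAD, where its RNA counts were 0. The division of reads among the transcripts of these genes was not tested.

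Tpi1, the glycolytic triosephosphate isomerase, was the opposite case among the lower ones. Footprints were 131, 168 and 181 CPM in AT2 and 167, 112, 83.7 and 82.0 in LUAD, while RNA was 0 in AT2 and 1.01, 0.277, 1.89 and 2.84 in LUAD (adjusted p = 0.044, lost in 12 of 14 such fits). The transcript held 88.3 and 67.9% of the gene's footprint counts and 0 and 0.193% of its RNA counts. Krtcap2 (adjusted p = 0.0147) and Eef1a1 (0.0117) passed with every library left out, while the second Bst1 transcript (0.0466) and Wdr73 (0.0468) passed in 1 of 14 such fits each. For Tpi1 and Eef1a1, copies elsewhere in the genome make the placing of reads uncertain.

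Isoform usage asks whether a transcript changed relative to the others of its gene. In footprints 1.58% of 9427 transcripts passed (1.21% higher, 0.371% lower) and 11 of 1005 members, 6 higher and 5 lower. Clptm1, a membrane protein of the endoplasmic reticulum, fell from 65.3, 51.3 and 92.2 CPM in AT2 to 4.18, 1.22, 1.30 and 1.37 in LUAD (log2 change -5.15, SE 0.57, adjusted p = 0.00552), and its part of the gene went from 33.4 to 2.30% (usage adjusted p = 0.000853). Bst1 (first transcript, adjusted p = 0.000822), Npepl1 (0.00317) and Spats2 (0.00589) rose in usage and Krtcap2 fell (0.00317). The calls of Clptm1, Npepl1, Spats2 and Krtcap2 held with each library left out, and the usage call of Bst1 was not refitted. Capns1 (0.0275), Prpf4b (0.0308) and Thada (0.0337) rose and Eef1a1 (0.0254) and Dync1li2 (0.0354) fell, and each of these was lost in some fits. In RNA 0.56% of 11069 transcripts passed (0.316% higher, 0.244% lower) and 1 of 956 members, the second Bst1 transcript, at 0 in AT2 and 9.72% of the gene in LUAD (adjusted p = 0.00764). In RNA 97 of 956 members and 803 of all 11069 transcripts had an unadjusted p under 0.05.

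At gene level, with sums over transcripts named in the ORF lists only, the genes that hold members moved like all others. The same sums serve for the gene lists below. In footprints 21.3% of 6814 genes passed (9.47% higher, 11.8% lower) and 490 of 2265 member genes (21.6%), 226 higher and 264 lower. In RNA 37% of 6942 passed (19% higher, 18% lower) and 837 of 2262 (37.0%), 459 higher and 378 lower. These shares match the background and are not a result about the members.

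Of all genes 19% rose and 18% fell in RNA, and 9.47% rose and 11.8% fell in footprints, which sets the scale for the splicing genes listed above. Of 31 tested genes known for retained or poison introns, 11 rose in RNA and 0 fell (median log2 change 0.36, against 0.04 for all genes), among them Hnrnpd (1.05), Rbm3 (0.97) and Ptbp1 (0.88). In footprints 2 of 30 rose (Srsf1 0.67, Rbm3 0.70) and 2 fell (Srsf4 -1.26, Snrnp70 -1.08), with a median of -0.06 against -0.02, counts at or below those of all genes. Of 16 intron definition factors 6 rose in RNA, led by Sf3b3 (1.20) and Snrpb (0.94), and Sf3a1 fell (-0.68), with a median of 0.41. In footprints Sf3b1 (0.82) and Sf3b3 (0.97) rose and Son (-0.90) and Srrm1 (-2.01) fell, with a median of -0.12.

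Of 14 tested genes of nonsense-mediated decay and the exon junction complex 3 rose in RNA and 0 fell, a rise near the 19% of all genes and so not a result about the list. They were the exon junction genes Magohb (3.04), Upf3b (1.05) and Rbm8a (1.02), with a list median of 0.47. In footprints Magohb alone passed (2.26), with a median of 0.32. Magohb went from 9.42 CPM ± 2.72 (SD, n = 3) to 77.1 ± 37.1 (SD, n = 4) in RNA by edgeR. The core decay factor Upf1 was at 74.8 CPM in AT2 and 76.7 in LUAD RNA, and its change of 0.04 did not pass (edgeR adjusted p = 0.878).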

How the data were processed

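For footprints and RNA, the deposited tables give an estimated count and a TPM for each transcript, and kallisto is named in the submitters' processing notes. The deposited TPM served in an alternative. Each ORF row holds, per the file headers, a count of P-sites by frame, an RPKM and a p-value; the build (mm10) is from the submitters' processing notes. Not given in the sources used here are the caller of the ORFs, the version of kallisto and how RNA libraries were made (their labels repeat the footprint protocol). ORFs of different lists were matched on the deposited identifier, and in each list only ORFs with a p-value up to 0.05 appear.

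The members and gene lists were chosen with earlier results of these data known. Gene names of transcripts were read from the ORF lists (22509 in the tables, 7266 genes). Peptides were compared with annotated ones of the same gene by shared runs of 10 residues. No peptide or nucleotide sequence is printed, as no genome or protein table of this build was used here.

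Estimated counts were rounded and fitted with edgeR 4.0.16 in R 4.3.3 (filterByExpr, TMM, robust quasi-likelihood test), with AT2 and LUAD of 1 assay in each fit, 14 libraries for footprints per RNA, and diffSpliceDGE for usage. P-values were Benjamini-Hochberg adjusted over all transcripts or genes tested, and CPM use the TMM-scaled library size. Alternatives used DESeq2 1.42.0 and limma 3.58.1, and Python 3.11.15 with scipy 1.17.1 gave intervals and permutation tests. Named were the 12 members with most P-sites, up to 15 listed in at least 4 libraries, the 3 longest and shortest, up to 5 listed in 1 tissue, those in the gene lists, and per comparison the 5 largest changes in each direction with a mean of at least 20 counts in the higher group. Predicted genes were counted and not named, other genes were named after their values were seen, and some that the rule takes are not described. At transcript level the deviations of AT2 and LUAD libraries of like replicate number correlated at -0.21 to 0.24 in footprints and 0.04 to 0.09 in RNA. For genes the correlations of like numbers were 0.37, -0.30 and 0.30 in footprints and 0.15 to 0.24 in RNA, a check from the data and not the labels. Unlike numbers were not compared, so whether the numbers pair these libraries is not settled, and the main gene fits use no pairing. No 2 replicates agreed within sampling noise (lowest mean chi-square 13.2). The LUAD libraries fell into sets, with replicates 1 and 2 in 1 set and 3 and 4 in the other. In footprints the mean chi-square was 17.4 and 13.2 within these sets and 52.9 to 63.1 between them. In RNA it was 46.9 and 37.3 within and 92.0 to 101 between. The 4 LUAD libraries are thus not 4 like replicates, and what the sets mark was not tested. On simulated counts with the fitted spread, the transcript tests recovered 24% of 16-fold changes in footprints and 40% in RNA, and 0 and 11% of 4-fold changes.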

Additional observations from a re-analysis of the deposited data

Results flagged for a closer look

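In the groups of 4 LUAD libraries, 1 library lay far from the other 3 in 7 of 46 groups of values. The groups are CPM of named transcripts and member shares of counts, and groups with all values equal were left out. Chance marks about 1 in 20 where values are normally distributed. That rate does not apply here, since a group with a single value above 0 is always marked. In 4 of the 7 groups the value is that of a library with a few counts where the others have 0: Aqp5 footprints (0.217 CPM in replicate 3), Dync1li2 footprints (0.321 in replicate 2), Dync1li2 RNA (0.275 in replicate 1) and Kctd17 footprints (0.128 in replicate 2). Clptm1 footprints were 4.18 CPM in replicate 1 and 1.22 to 1.37 in the others. Prpf4b footprints were 0.727 CPM in replicate 1 and 7.12 to 7.38 in the others. Wdr73 footprints were 4.43 CPM in replicate 2 and 1.51 to 2.00 in the others.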

How the results depend on the processing

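Calls on single transcripts were sensitive to the library and the test. The 56 footprint calls were 160 with DESeq2 (79 higher, 81 lower), 103 with a library set seen in the data as a term, 82 on log2 TPM (60 higher, 22 lower; this scale moved the median of all transcripts from 0.16 to 0.59) and 0 with the replicate block in edgeR, under which 0 of all 25939 transcripts passed and 107 of 1085 members (3261 of all) had an unadjusted p under 0.05. They were 12 to 86 with 1 library left out (lowest without LUAD replicate 3, highest without AT2 replicate 1). The 46 RNA calls were 132 with DESeq2, 9 with the replicate block, 79 on log2 TPM (52 higher, 27 lower) and 15 to 62 with 1 left out (LUAD 3, AT2 3). The 9 calls in footprints per RNA were 114 with DESeq2 and 4 to 14 with 1 left out. Usage calls were 5 to 34 of 11 in footprints, and in RNA 1 to 4, or 2 at a mean of at least 5 counts. The gene counts were 267 to 627 of 490 in footprints, or 311 with the block, and 507 to 1111 of 837 in RNA. The block changed no other count by over 1.5 times among these. Of 454 refits of named transcripts 293 kept the call, 161 lost it and 0 reversed.

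Member shares of the lists were 17.8% in AT2 replicate 1, 16.3% in LUAD 1 and 15.3% in LUAD 2 at a p-value under 0.01, and 14.2, 12.6 and 15.5% in AT2 1, AT2 2 and LUAD 2 with at least 10 P-sites. Group means ranged from 14.3 to 15.9% (AT2) and 17.1 to 17.4% (LUAD). In members with no shared run, in-frame P-sites were 54.0, 59.3, 53.4, 54.5 and 60.2% and the median length was 67 codons. Over members of every form the median length was 166 codons, and 206.5 in those of at least 2 lists. The nested figure of 1.31% was 9.03% without Actb, where Arpp19 gives 348 of the 720 P-sites at equal density. Shares of all counts ranged, with 1 library left out, from 2.81 to 3.52 and 3.37 to 3.45% (footprints, AT2 and LUAD) and 1.12 to 1.16 and 1.09 to 1.13% (RNA), and shares of their genes from 10.7 to 12.3, 10.1 to 10.4, 3.67 to 3.72 and 3.37 to 3.5%. Counts per transcript limit the tests: 448 of 3602 transcripts had 0 footprint counts.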
